A study of Homo sapiens with 12 samples.

Results

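The RNA-seq table of cells labelled PC3, an androgen-independent human prostate cancer line, lists 545 transcribed loci that carry no gene annotation among its 61221 rows. They are the rows that the table gives a running number in place of a gene identifier, taken by that name alone and not by any measured value, and each is called here by its number (locus 41). The table of the companion line LNCaP has 0 such rows among 58735. A total of 6 PC3 libraries were compared, 3 exposed to erastin at 5 µmol/L and 3 exposed to DMSO, the solvent. Erastin is an inhibitor of the cystine/glutamate antiporter xc- that starves cells of cystine and can bring on ferroptosis, a death by lipid peroxidation that needs iron. All 6 libraries carry the genotype label WT, and no exposure time is stated. Whether replicates are separate cultures is not stated either, so each p-value reflects the spread between libraries, possibly only a technical one.

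Transcripts outside the annotation can be readthrough from a gene, a transcript that starts beside a gene on the other strand, a missed gene, or RNA from a transposable element. Human endogenous retrovirus H (HERV-H) is a family of ancient proviruses whose transcripts are known for their high level in human pluripotent stem cells, where the HERV-H-derived gene ESRG was described. LINE-1 is the autonomous retrotransposon family of the human genome, and its ORF2 protein carries the reverse transcriptase. Transcripts of such repeats can match many places in the genome, and the treatment of reads with several matches is not stated.

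The libraries held 13709558 to 16350657 recovered reads (recovered from FPKM times exon length). DMSO replicate 1 stood apart from the other DMSO libraries in the share of reads at the loci, which was the highest of the 6. Mitochondrial ribosomal RNA took 1.95% to 2.18% of reads in erastin libraries and 0.628% to 0.944% in DMSO libraries. All 10 markers listed for the PC3 line were lower under erastin, with summed levels of 168 to 174 FPKM in erastin libraries and 1604 to 1884 FPKM in DMSO libraries. CTNNA1, the gene of the adhesion protein alpha-catenin, is known from other work as deleted in PC-3 and was detected, which goes against the label. It had 5.92, 6.61 and 6.18 FPKM in erastin libraries, against 56.7, 50.6 and 51.2 FPKM in DMSO libraries. Of 7 LNCaP markers, 2 were tested and both were lower under erastin, with sums of 41.2 to 47.4 FPKM in erastin libraries and 87.3 to 154 FPKM in DMSO libraries. Of 7 stromal markers 1 was tested and did not pass (sums of 4.93 to 5.13 FPKM in erastin libraries and 3.37 to 6.37 FPKM in DMSO libraries), 1 of 5 leukocyte markers was tested and was higher under erastin (1.20 to 1.58 and 0.219 to 0.507 FPKM), and 2 of 4 endothelial markers were tested and both were lower (4.54 to 4.94 and 27.1 to 32.2 FPKM). The effect of erastin and any other difference between the cells of the 2 groups cannot be told apart in what follows, and neither can fewer cells with a transcript and less of it per cell.

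The loci were spread over the genome. Chromosome 1 held 61, chromosome 19 held 37, chromosome 2 held 36 and chromosome 9 held 33, while 24 lay on unplaced or unlocalized scaffolds. Exon length had a median of 1324 bases and ran from 200 to 30900 bases, and the genomic span had a median of 3342 bases. For 219 loci the span equalled the exon length, so these are single blocks. No locus overlapped an annotated row of the table. The gap to the nearest one had a median of 3974 bases and reached 178337 bases, for locus 218 on chromosome 18. In the later RefSeq annotation of GRCh38.p14, 205 loci overlapped a gene, of which 151 overlapped a long non-coding RNA gene and 45 a protein-coding gene, and 340 overlapped none. Whole spans were compared without regard to strand or exons, so an overlap does not make the locus that gene. By position, 241 loci lay over 5 kb from any annotated row, 79 were head to head with one (opposite strands, start sites within 1 kb), 78 began within 5 kb downstream of one on the same strand, 77 ended within 5 kb upstream of one on the same strand, and 62 were near one in another arrangement. Another 8 were on scaffolds without an annotated row.

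The deposited table gives protein matches for the loci, and these set the groups used here. Of the 545 loci, 311 had a Swiss-Prot match and 20 a Pfam domain. A match to HERV-H was carried by 41 loci, 32 of them to the ESRG protein and 9 to a HERV-H envelope protein. LINE-1 ORF2 or ORF1 matches marked 36 loci, other retroviral proteins 17 and DNA transposon proteins 5. Other proteins were matched by 212 loci, and 234 had no match. The most frequent of these proteins were Zinc finger protein ENSP00000375192 (47 loci) and UPF0764 protein C16orf89 (38). Next was a putative uncharacterized protein encoded by LINC00596 (26). Whether loci of these 2 groups hold repeat sequence was not tested. A match describes similarity of sequence, not a translated protein.

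Sequence was held for few of the loci, because it was read from RefSeq promoter windows (GRCh38.p14, 250 bases before to 50 after an annotated start), which cover only loci that reach one. A set of 4 such windows is shown: one inside a HERV-H-matched locus that fell and 3 that hold the start of a locus that rose opposite a known gene. Capitals mark bases within the span of the locus, whose exons are not given, lower case those outside it, and each reads 5′ to 3′ along the strand of the window's gene.
locus 149 in the window of LOC124903225 (chr13:66117811-66118110, minus strand): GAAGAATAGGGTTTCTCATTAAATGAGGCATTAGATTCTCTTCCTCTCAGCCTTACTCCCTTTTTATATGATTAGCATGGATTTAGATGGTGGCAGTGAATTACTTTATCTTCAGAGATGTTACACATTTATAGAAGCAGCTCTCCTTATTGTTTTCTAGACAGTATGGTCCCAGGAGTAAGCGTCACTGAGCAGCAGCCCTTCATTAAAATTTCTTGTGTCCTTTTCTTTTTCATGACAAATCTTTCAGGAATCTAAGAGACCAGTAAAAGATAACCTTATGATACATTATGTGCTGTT
locus 390 in the window of H4C8 (chr6:26285485-26285784, minus strand): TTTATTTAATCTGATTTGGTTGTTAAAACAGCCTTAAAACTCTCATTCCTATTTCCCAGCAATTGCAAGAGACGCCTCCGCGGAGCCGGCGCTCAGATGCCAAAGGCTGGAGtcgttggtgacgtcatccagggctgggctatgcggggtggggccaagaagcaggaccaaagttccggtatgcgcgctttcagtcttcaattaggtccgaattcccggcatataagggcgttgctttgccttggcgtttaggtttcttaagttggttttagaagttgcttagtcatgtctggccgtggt
locus 108 in the window of STIP1 (chr11:64185022-64185321, plus strand): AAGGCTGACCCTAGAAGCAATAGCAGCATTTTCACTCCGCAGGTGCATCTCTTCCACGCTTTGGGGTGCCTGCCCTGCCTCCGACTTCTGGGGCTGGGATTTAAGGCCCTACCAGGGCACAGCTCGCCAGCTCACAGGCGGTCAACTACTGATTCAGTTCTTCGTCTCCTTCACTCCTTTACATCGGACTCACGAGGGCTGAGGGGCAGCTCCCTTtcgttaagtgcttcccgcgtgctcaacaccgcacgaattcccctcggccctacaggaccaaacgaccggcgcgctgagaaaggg
locus 318 in the window of TBC1D10A (chr22:30326892-30327191, minus strand): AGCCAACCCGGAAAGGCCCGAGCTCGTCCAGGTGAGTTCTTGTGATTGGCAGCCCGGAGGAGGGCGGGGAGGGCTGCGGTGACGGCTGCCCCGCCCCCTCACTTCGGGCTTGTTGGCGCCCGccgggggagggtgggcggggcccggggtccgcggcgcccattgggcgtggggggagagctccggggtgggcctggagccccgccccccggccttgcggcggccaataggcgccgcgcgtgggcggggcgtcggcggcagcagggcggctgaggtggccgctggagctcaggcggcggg

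Reads at the unannotated loci made up a smaller share of erastin libraries, while more of the loci were detected there, as were more rows of the whole table. The loci took 0.214%, 0.264% and 0.219% of reads in erastin libraries, against 0.826%, 0.666% and 0.593% in DMSO libraries. The groups did not overlap, and the mean share was 0.232% ± 0.0276 in erastin libraries and 0.695% ± 0.119 in DMSO libraries (SD, n = 3 each). Erastin minus DMSO, this was -0.462 percentage points, and -0.397 without DMSO replicate 1. At least 10 reads were found at 317, 330 and 340 loci in erastin libraries, against 245, 248 and 242 loci in DMSO libraries. At least 1 read was found at 475 to 489 loci in erastin libraries and 405 to 420 in DMSO libraries, a mean 1.17-fold difference. Over all rows of the table, 30239 to 31311 were above 0 in erastin libraries and 25679 to 26144 in DMSO libraries, a mean 1.19-fold difference. Of all loci, 326 had a read in every library, 68 in erastin libraries only, 16 in DMSO libraries only, and 10 in none.

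A single locus and its family carried most of the difference in share. HERV-H-matched loci took 0.0211%, 0.0255% and 0.0254% of reads in erastin libraries, against 0.565%, 0.466% and 0.385% in DMSO libraries, a mean 19.7-fold lower under erastin. They were 9.66% to 11.6% of all reads at the loci in erastin libraries and 65.0% to 70.0% in DMSO libraries. Without locus 41, the locus with the most reads, the HERV-H share was still 12.3-fold lower and the share of all loci was 0.223% ± 0.0269 in erastin libraries and 0.398% ± 0.0593 in DMSO libraries (SD, n = 3 each). With all HERV-H loci left out, the remaining 504 loci took 0.208% ± 0.0262 in erastin libraries and 0.223% ± 0.0333 in DMSO libraries (SD, n = 3 each), a difference smaller than either SD. Other retroviral loci were 8.15-fold lower in summed share under erastin, DNA transposon loci 6.08-fold lower and LINE-1 loci 1.85-fold lower, while loci matching other proteins were 1.32-fold higher. The DNA transposon value rested on locus 342, which held 74.4% to 82.6% of its reads in DMSO libraries: the other 4 loci were 2.18-fold lower. Without their own locus with the most reads, other retroviral loci were 5.79-fold and LINE-1 loci 1.47-fold lower. These values without a locus were chosen after seeing the data.

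**Figure D1:**
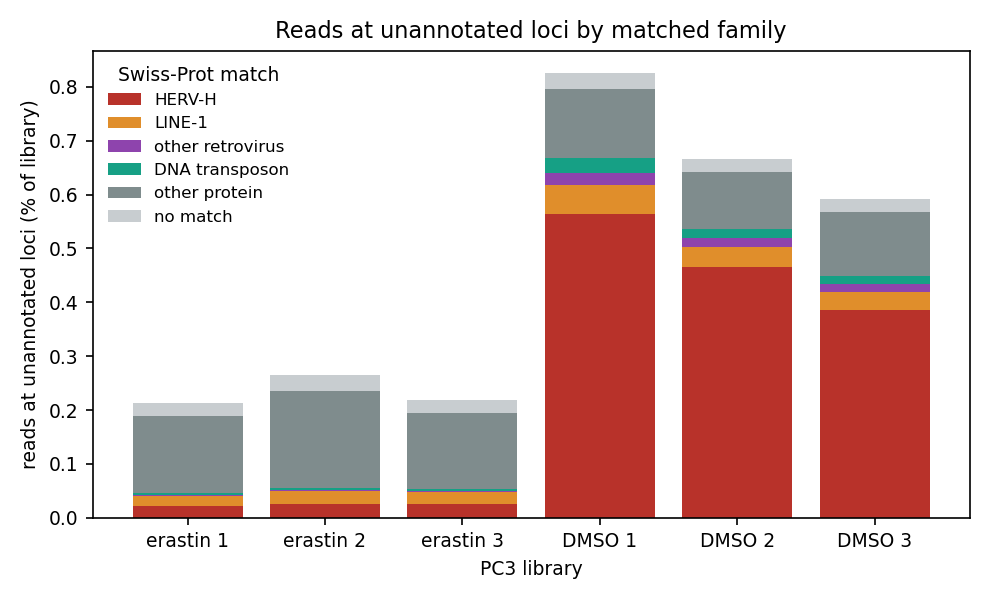
Share of each library's recovered reads at the 545 unannotated loci (y axis, %), stacked by protein match, in the 3 erastin and 3 DMSO libraries of PC3 (x axis). HERV-H-matched loci hold 0.0211% to 0.0255% in erastin libraries and 0.385% to 0.565% in DMSO libraries.

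Of the 545 loci, 286 reached 1 FPKM in 3 or more libraries and were tested, and 259 were not. By limma with Benjamini-Hochberg adjustment over all 15371 rows tested (threshold 0.05), 151 loci rose and 87 fell under erastin, and 48 did not pass. That is 83.2% of the tested loci, beside 66.4% of all rows tested and 70.8% of annotated long non-coding RNA rows. Higher calls were 52.8% of the loci, beside 34.0% of all rows and 49.0% of annotated long non-coding RNA rows. Lower calls were 30.4% of the loci, beside 32.4% of all rows and 21.8% of long non-coding RNA rows. The median log2 fold change on the log2(FPKM + 1) scale was 0.62 for the loci, 0.50 for long non-coding RNA rows, -0.13 for protein-coding rows and 0.00 for all rows. The 3 erastin libraries lay on one side of the 3 DMSO libraries at 242 of the 286 tested loci, 84.6%, beside 71.9% of all rows tested.

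The filter shaped these counts. There were 123 tested loci with at least 1 FPKM in every erastin library and no DMSO library, and 56 with the reverse, and such loci had to differ to pass. Among the 40 loci with at least 1 FPKM in all 6 libraries, 8 rose, 18 fell and 14 did not pass. With no filter, 212 loci rose and 119 fell of 535 fitted, beside 33.9% of all rows called, 20% higher and 13.9% lower. The test also called too many unchanged rows averaging under 10 reads in simulated data, and 30 of the tested loci, 17 of them called, were that low. With at least 10 reads on average, 138 loci rose and 83 fell of 256 tested, beside 68.0% of all rows called, 33.5% higher and 34.5% lower.

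**Figure D2:**
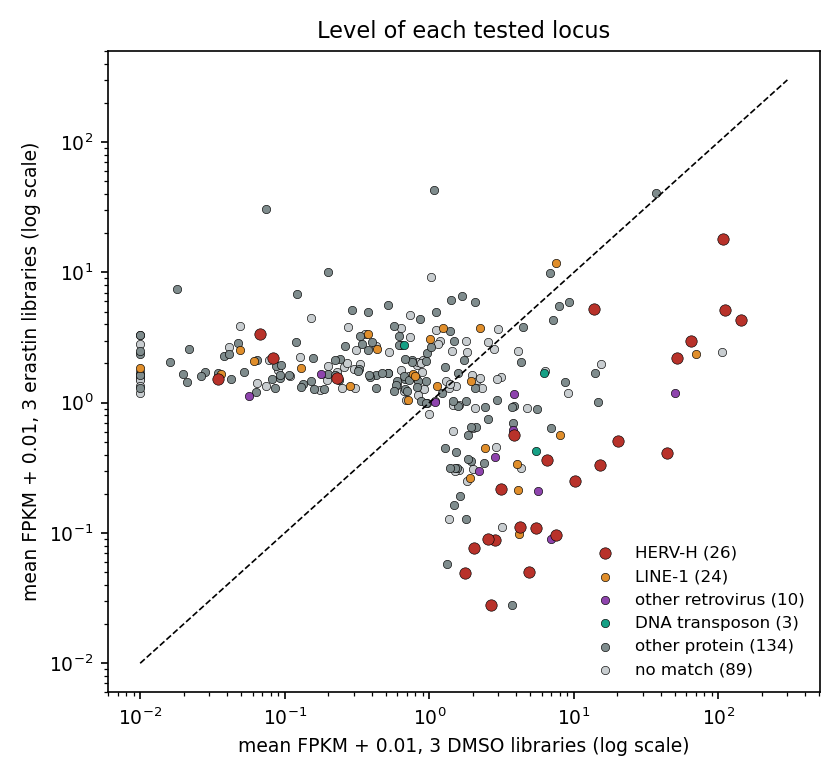
Mean FPKM + 0.01 of each of the 286 tested loci in the 3 erastin libraries (y axis, log scale) against the 3 DMSO libraries (x axis, log scale), coloured by protein match, with the line of equal level. Most HERV-H-matched loci, 22 of 26, lie below the line, and loci matching other proteins lie mainly above it, 85 having risen and 30 fallen.

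Most tested HERV-H-matched loci fell. Of 41, 26 were tested, and 22 fell, 4 rose and 0 missed the threshold, with a median log2 fold change of -2.35. Lower calls were 84.6% of these, beside 30.4% of all tested loci and 32.4% of all rows tested. The filter shaped this count too. Applied anew without any 1 DMSO library, it left 10 loci, with 6 falls and 4 rises. Without any 1 erastin library it left 22, with 22 falls and 0 rises. Loci so dropped had passed largely through the group in which they were higher, so they had to differ. The 19 tested loci that match the ESRG protein held 18 falls and 1 rise, and the 7 that match the envelope protein held 4 falls and 3 rises. The other 15 loci averaged at most 0.293 FPKM in erastin libraries and at most 1.27 FPKM in DMSO libraries, and 3 of them had no read. Most of the family, 30 of 41, lay over 5 kb from any annotated row.

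The locus with the most reads was locus 41, matched to the ESRG protein, at chr1:68386044-68408577 on the minus strand (hg38), with 22351 exonic bases. Its level was 3.69, 4.62 and 4.66 FPKM in erastin libraries, against 178, 138 and 115 FPKM in DMSO libraries. Every DMSO library was far above every erastin library, with a log2 fold change of -4.74 (SE 0.18; limma adjusted p = 8.11e-06). The nearest annotated row, the processed pseudogene AL139413.1, is 4387 bases away and averaged 0.0954 FPKM in erastin libraries and 0 in DMSO libraries. The nearest protein-coding gene, 20245 bases away, was lower under erastin too, with a log2 fold change of -2.69 (limma adjusted p = 1.52e-05).

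The envelope-matched locus 25, at chr1:230600268-230609049, fell most within the family. It had 0.290, 0.478 and 0.426 FPKM in erastin libraries, against 57.8, 40.5 and 34.2 FPKM in DMSO libraries, a log2 fold change of -4.98 (SE 0.20; limma adjusted p = 9.14e-06). The spread among DMSO libraries was wide beside that of erastin libraries, yet the groups were far apart.

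Another ESRG-matched locus, locus 375 at chr5:136540981-136570082, also carries a zinc knuckle, the nucleic acid-binding domain of retroviral Gag. Its level was 4.47, 5.44 and 5.51 FPKM in erastin libraries, against 139, 108 and 88.6 FPKM in DMSO libraries, with a log2 fold change of -4.18. Zinc knuckles were annotated in 7 loci, and all 4 of those tested fell. Lower calls were 30.4% of all tested loci and 32.4% of all rows tested. This count is not separate from the HERV-H falls above, which already include locus 375. Another 2 HERV-H loci had falls of like size, with log2 fold changes of -4.06 at locus 229 on chromosome 19 and -4.05 at locus 362 on chromosome 4.

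The highest level left under erastin in this family was that of locus 401 on chromosome 6, also with a zinc knuckle. It had 15.4, 19.6 and 18.9 FPKM in erastin libraries, against 105, 112 and 108 FPKM in DMSO libraries, a log2 fold change of -2.53. The nearest annotated gene is UTRN, which encodes utrophin and lies 70480 bases away. UTRN fell too, with 1.15 ± 0.111 FPKM in erastin libraries and 5.93 ± 1.59 FPKM in DMSO libraries (SD, n = 3 each).

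The 4 HERV-H loci that rose were low in DMSO libraries. On chromosome 8, locus 459 had 3.29, 2.63 and 4.17 FPKM in erastin libraries, against 0.0880, 0.0851 and 0 FPKM in DMSO libraries. The ESRG-matched locus 238 on chromosome 19 had 2.13, 2.16 and 2.34 FPKM in erastin libraries, against 0.0586, 0.0425 and 0.116 FPKM in DMSO libraries. The remaining pair, locus 369 on chromosome 5 and locus 392 on chromosome 6, rose by 1.27 and 1.06 on the log2 scale. Falls and rises thus occurred within 1 family, and the range of its log2 fold changes was -4.98 to 2.03.

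**Figure D3:**
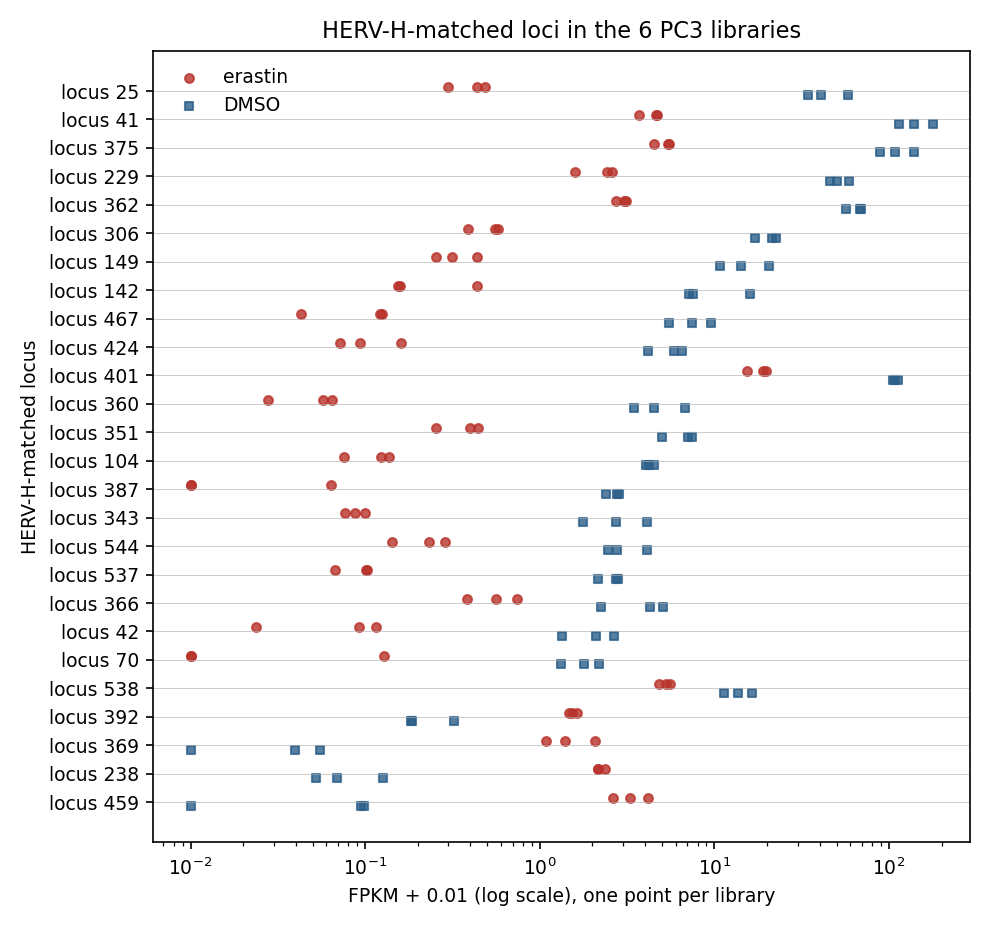
FPKM + 0.01 (x axis, log scale) of the 26 tested HERV-H-matched loci (y axis, ordered by log2 fold change) in each library, with circles for the 3 erastin and squares for the 3 DMSO libraries. The groups do not overlap at any of the 26 loci: 22 are lower and 4 higher under erastin. They also do not overlap at 84.6% of all tested loci and 71.9% of all rows tested.

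The annotated gene ESRG itself was hardly detected. It was at 0 in all 3 erastin libraries and at 0.137, 0.110 and 0.113 FPKM in DMSO libraries, so it was not tested. Of 15 annotated rows named for endogenous retroviruses, 2 were tested and both rose, beside higher calls at 34.0% of all rows tested. The rest did not pass the filter on level. ERV3-1, the single-copy ERV3 envelope gene, averaged 4.21 ± 0.114 FPKM in erastin libraries and 1.59 ± 0.345 FPKM in DMSO libraries, and ERVK3-1 averaged 5.47 ± 0.135 FPKM in erastin libraries and 1.66 ± 0.268 FPKM in DMSO libraries (SD, n = 3 each).

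Overlaps between loci involved the same family. There were 22 overlapping pairs, 20 of them on opposite strands, and 12 had a HERV-H member. The strand setting of the counting is not stated, so the reads of such partners cannot be told apart. The largest fall of all, at the short locus 140 (395 exonic bases, no protein match, chr13:66141368-66147035, plus strand), was in such a pair. Its level was 1.10, 3.89 and 2.36 FPKM in erastin libraries, against 98.6, 103 and 116 FPKM in DMSO libraries, with a log2 fold change of -5.03 (SE 0.29; limma adjusted p = 2.39e-05). Its partner on the minus strand is the ESRG-matched locus 149, chr13:66103639-66146722, whose window sequence is given above. That locus had 0.303, 0.246 and 0.424 FPKM in erastin libraries, against 20.6, 14.2 and 10.7 FPKM in DMSO libraries, a log2 fold change of -3.57. Both members were lower in every erastin library than in any DMSO library.

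Loci matching other mobile elements were divided. Of 10 tested loci matching other retroviruses, 7 fell, 2 rose and 1 did not pass, with a median of -1.41. Lower calls were 70% of these, beside 30.4% of all tested loci and 32.4% of all rows tested. The gag-pol-matched locus 39 on chromosome 1 had 0.759, 1.40 and 1.36 FPKM in erastin libraries, against 75.0, 43.1 and 33.0 FPKM in DMSO libraries, a log2 fold change of -4.49. In the other direction, locus 337 on chromosome 3, matched to syncytin-1, the fusion protein of the placenta, rose by 1.20 on the log2 scale. Of 3 tested DNA transposon loci, 2 fell and 1 rose. The locus with the most exonic bases, locus 342 on chromosome 3 with a DDE endonuclease domain, had 0.358, 0.440 and 0.448 FPKM in erastin libraries, against 8.27, 4.03 and 3.99 FPKM in DMSO libraries.

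LINE-1-matched loci rose more often than they fell, at rates near those of all tested loci. Higher calls were 54.2% of them, beside 52.8% of all tested loci and 34.0% of all rows tested. Lower calls were 29.2%, beside 30.4% and 32.4%. Of 24 LINE-1 loci tested, 13 rose, 7 fell and 4 did not pass, with a median log2 fold change of 0.58. The largest single change was still a fall: locus 427, at chr7:26023710-26029809, had 1.89, 2.64 and 2.48 FPKM in erastin libraries, against 86.1, 63.7 and 61.4 FPKM in DMSO libraries, a log2 fold change of -4.41. The nearest annotated row, MIR148A, is 73724 bases away and was at 0 FPKM in all 6 libraries. The nearest protein-coding gene, 122389 bases away, had a log2 fold change of -1.71. The largest rise was that of locus 529, downstream of the histone demethylase gene KDM6A, with means of 2.51 FPKM in erastin libraries and 0.0390 FPKM in DMSO libraries and a log2 fold change of 1.75.

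Loci matching other proteins and loci without a match rose more often than they fell. Of 134 tested loci matching other proteins, 85 rose, 30 fell and 19 did not pass, with a median of 0.89. Of 89 tested loci without a match, 46 rose, 19 fell and 24 did not pass, with a median of 0.73. Higher calls were 63.4% of the former and 51.7% of the latter, beside 52.8% of all tested loci and 34.0% of all rows tested. Lower calls were 22.4% and 21.3%, beside 30.4% and 32.4%.

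The largest rise was at locus 24, a locus of 368 exonic bases at chr1:228442572-228444790. It had 30.1, 26.9 and 34.6 FPKM in erastin libraries, against 0, 0 and 0.193 FPKM in DMSO libraries, a log2 fold change of 4.89 (SE 0.15; limma adjusted p = 4.50e-06). Its nearest annotated row, the ribosomal protein pseudogene RPL23AP15, 4373 bases away, rose by 3.19 on the log2 scale. On chromosome 8, locus 456 had 45.2, 42.8 and 40.5 FPKM in erastin libraries, against 1.03, 1.31 and 0.883 FPKM in DMSO libraries, a log2 fold change of 4.40. On chromosome 13, locus 137 had 7.26, 6.15 and 8.99 FPKM in erastin libraries, and a single DMSO library held reads of it, at 0.0243 FPKM. A further 3 loci of the 8 largest rises, locus 17, locus 145 and locus 152, had log2 fold changes of 2.38, 2.26 and 2.25. The last lies 2274 bases from JPH4, a junctophilin gene, which rose by 1.55.

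The calls were also counted by position relative to annotated rows. Of loci over 5 kb from any annotated row, 56 rose, 57 fell and 13 did not pass. Head to head loci held 34 rises, 9 falls and 10 that did not pass, and loci downstream on the same strand held 28 rises, 5 falls and 9 that did not pass. Upstream loci on the same strand held 14 rises, 7 falls and 8 that did not pass. Higher calls were 44.4% of far, 64.2% of head to head, 66.7% of downstream and 48.3% of upstream loci tested. Over all tested loci they were 52.8%, and over all rows tested 34.0%. Lower calls were 45.2%, 17.0%, 11.9% and 24.1% in the same order, beside 30.4% and 32.4%. Differences between positions were not tested. The nearest annotated row was also tested for 166 loci, and locus and neighbour had the same sign for 117, with a Pearson r of 0.45 between their log2 fold changes, a description over pairs that share libraries and may share reads. Both passed in 106 pairs: both rose in 55, both fell in 26, the locus rose where its neighbour fell in 20, and the reverse held in 5. No rate for unrelated pairs of rows was computed to set beside these counts or those of the downstream and head to head pairs below.

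Among 33 downstream loci and the gene before them the Pearson r was 0.62, 12 pairs rose together and 3 fell together. In 4 pairs the locus rose while the gene fell, and the reverse held in 0, of 19 pairs in which both passed.

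**Figure D4:**
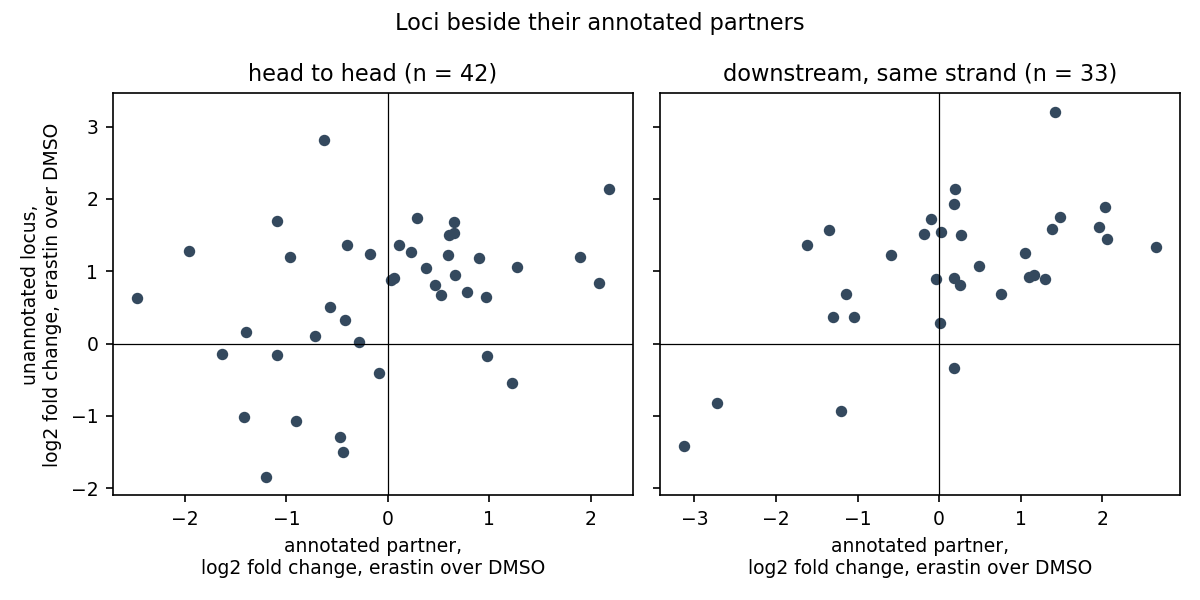
Log2 fold change of each unannotated locus (y axis) against that of its annotated partner (x axis), erastin over DMSO on the log2(FPKM + 1) scale, for 42 head to head pairs (left) and 33 downstream pairs on the same strand (right). Points in the upper right and lower left have the same sign, 28 of 42 and 23 of 33.

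For head to head partners the r was 0.33 over 42 pairs, and its difference from the downstream pairs was not tested. Of 22 pairs in which both passed, 13 rose together, 4 fell together and in 5 the locus rose while the gene fell. The strongest rise together was at locus 390, which starts 35 bases from H4C8, a core histone H4 gene, on the other strand. It had 4.29, 5.37 and 5.29 FPKM in erastin libraries, against 0.569, 0.190 and 0.347 FPKM in DMSO libraries, a log2 fold change of 2.13. H4C8 averaged 118 ± 10.6 FPKM in erastin libraries and 25.4 ± 5.36 FPKM in DMSO libraries (SD, n = 3 each), a log2 fold change of 2.18. Histone genes have near-identical copies, so the level of H4C8 is uncertain.

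The opposite directions were clearest at locus 379, 16 bases from STC2, a stanniocalcin hormone gene on chromosome 5. The locus had 6.24, 7.11 and 7.06 FPKM in erastin libraries, against 0.105, 0.152 and 0.0778 FPKM in DMSO libraries, a log2 fold change of 2.81. STC2 fell to 27.3 ± 1.54 FPKM in erastin libraries, against 43.0 ± 4.91 FPKM in DMSO libraries (SD, n = 3 each), a log2 fold change of -0.63. TMEM250 on chromosome 9 fell by 1.09 on the log2 scale while locus 490, 175 bases away, rose by 1.69.

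Other head to head loci rose beside genes with smaller changes. At STIP1, a co-chaperone of HSP70 and HSP90, locus 108 had 4.21, 5.18 and 3.80 FPKM in erastin libraries, against 0.759, 0.828 and 0.971 FPKM in DMSO libraries, a log2 fold change of 1.54 beside 0.65 for STIP1. At TBC1D10A, a Rab GTPase-activating protein gene, locus 318 had 1.65, 2.81 and 2.56 FPKM in erastin libraries, against 0, 0.0621 and 0.0318 FPKM in DMSO libraries, a log2 fold change of 1.68 beside 0.65 for TBC1D10A. The locus locus 250, at 0 FPKM in all DMSO libraries, had 2.52, 1.74 and 2.86 FPKM in erastin libraries, and its partner GET3, an ATPase gene for the insertion of tail-anchored proteins, did not pass, with means of 80.4 ± 13.4 FPKM in erastin libraries and 67.7 ± 21.8 FPKM in DMSO libraries (SD, n = 3 each; limma adjusted p = 0.359). The HERV-H-matched locus 387 fell by 1.85 on the log2 scale beside the non-coding AC034213.1, which fell by 1.20. The low locus 49, at a mean of 6.33 reads, fell by 1.50 beside AC245297.4, but lost the call without erastin replicate 2 (limma adjusted p = 0.0520) or 3 (0.0505).

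For 28 of 78 head to head loci off chromosome 8, the start lay inside the RefSeq promoter window of the partner gene. Of these 28, 19 were tested, and 14 rose and 3 fell. Among all tested head to head loci 64.2% rose and 17.0% fell, and among all rows tested 34.0% and 32.4%. The filter shaped these counts as well. The CCAAT box, searched as CCAAT on both strands, was in 13 of the 28 windows, beside 34.65% of all 34943 windows of that length. GGGCGG, the core of the GC box, was in 21, beside 44.87% of all windows. All windows had a median GC content of 58.67%, and the comparison was not matched for GC content, on which a motif of G and C depends. TATAAA was in 1 window, beside 11.57% of all. The windows of H4C8 and STIP1 printed above hold none of the 3 motifs, while that of TBC1D10A holds CCAAT 3 times and GGGCGG 6 times. A match of letters is not a bound site.

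A pair of longer elements was searched as 1 fixed string each, both strands. The endoplasmic reticulum stress element was in 0 of the 28 windows and 0.0773% of all, and the heat shock element in 0 and 0.489%.

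With gaps of at most 50 kb, 109 of the loci stood in 50 groups, 43 of them pairs. The largest was 5 loci on the scaffold KI270733.1, which carries ribosomal DNA. There the minus-strand locus 523 had 35.4, 68.5 and 18.9 FPKM in erastin libraries, against 10.04, 32.4 and 67.7 FPKM in DMSO libraries. The groups overlapped and it did not pass (limma adjusted p = 0.703). The 7 loci on ribosomal DNA scaffolds took 0.0230%, 0.0437% and 0.0117% of reads in erastin libraries, against 0.00605%, 0.0187% and 0.0390% in DMSO libraries, so the share moved between libraries of a group as much as between groups. Of the 5, locus 520 was not tested, locus 521 and locus 522 did not pass, and locus 524 rose by 0.76 with a call that was lost in 4 of the settings tried.

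Next in size were 6 groups of 3, of which 2 are given. On chromosome 17, 3 loci lay between 43315963 and 43331789. Of these, locus 197 had 3.67, 3.73 and 2.56 FPKM in erastin libraries and 0 in all DMSO libraries, locus 213, matched to an endogenous retrovirus K polymerase, rose by 1.01, and locus 198 was too low to be tested. The nearest annotated rows rose too: CCDC200 by 1.31 and the non-coding LINC00910 by 1.79 on the log2 scale. On chromosome 19, locus 234 beside the zinc finger gene ZNF101 did not pass (limma adjusted p = 0.0515), and locus 253 and locus 254 were not tested, at 0.601 to 1.36 FPKM over the erastin libraries of all 3 loci and 0 to 1.01 FPKM over their DMSO libraries.

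The loci farthest from any annotated row went in both directions. On chromosome 18, locus 218 had 2.17, 3.11 and 2.05 FPKM in erastin libraries, against 0.481, 0.507 and 0.564 FPKM in DMSO libraries, and rose by 1.17 on the log2 scale. On chromosome 1, the ESRG-matched locus 42 fell by 1.48, and on chromosome 2, locus 279 fell by 1.19, with the non-coding THORLNC 166885 bases away, which fell by 1.33. Among loci seen in all libraries, locus 532 on chromosome X did not pass (log2 fold change -0.44, limma adjusted p = 0.0905), and locus 122 on chromosome 12 fell by 0.62 (limma adjusted p = 0.0292), a call lost in several settings, as with replicate number as a block.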

How the data were processed

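TRIzol extraction and TruSeq library preparation (Illumina) from total RNA are given by the labels' protocols, and HISAT2 2.0.5 with build hg38 by the submitters' processing notes. The counter, its strand setting and the way unannotated loci were found are not stated there. The authors deposited FPKM, fragments scaled by exon length and depth, with coordinates, lengths and protein matches. FPKM times length was divided by the worth of 1 read in each library, fitted on its rows with few reads. This gave whole reads for 100% of values above 0 (tolerance 0.1 reads, wider for rows with very many reads). The depth implied by that worth was 0.985 to 1.02 of the recovered reads in erastin libraries and 0.907 to 0.937 in DMSO libraries. FPKM and shares of recovered reads are thus not scaled quite alike in the 2 groups. On the recovered reads limma voom called 151 loci higher and 85 lower, and 5458 and 4845 of all rows.

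Erastin was compared with DMSO by limma 3.58.1 (R 4.3.3, variance trend, two-sided) on log2(FPKM + 1), over all rows reaching 1 FPKM in 3 or more of 6 libraries, with Benjamini-Hochberg adjustment and a threshold of 0.05. The pseudocount of 1 understates changes of low loci. Positions and gaps came from the table's own coordinates. The fit was tested on simulated reads over 12 seeds. For rows averaging under 10 reads it called too many unchanged rows, and over all rows the share of false calls was above the nominal one, so counts with a mean of at least 10 reads stand beside the main ones. The self-test's criterion was set apart at 10 reads after a first version failed.

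Loci were named by rule: the 8 largest rises and falls with groups apart, the 8 highest, the longest, shortest and farthest, the highest per position class, their nearest rows, the 3 largest groups of neighbours and up to 8 head to head loci. Some items that the rule and the marker lists take are not reported here. Others, such as the HERV-H loci that rose, locus 149, locus 337 and locus 529, were named after their values were seen. The members and lists were chosen with earlier results of these data known, and the protein match groups and printed windows were set after seeing the table. Alternatives covered pseudocount, filter, scaling, variance prior, limma voom on recovered reads, replicate block, left-out libraries, and the windows for positions. Plots used matplotlib 3.10.9.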

Additional observations from a re-analysis of the deposited data

How the results depend on the processing

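The 22 falls and 4 rises of HERV-H loci were unchanged when any 1 library was left out with the tested rows kept, and with quantile or protein-coding scaling. Leaving out 1 library gave 145 to 158 loci higher, 82 to 92 lower and a median log2 fold change of 0.56 to 0.67. Applying the filter anew, chosen after seeing the data, drops by construction rows seen only in the group left with 2 libraries: it gave 23 to 155 loci higher (24, 23 and 23 without erastin replicates 1, 2 and 3), 27 to 84 lower (36, 27 and 28 without DMSO replicates 1, 2 and 3), 0 to 4 HERV-H loci higher, 6 to 22 lower, 2896 to 6137 of all rows higher (3010, 2906 and 2896 without erastin replicates), 3339 to 5235 lower, and a median of -0.79, -0.76 and -0.79 without erastin replicates 1, 2 and 3 and of 1.07, 0.98 and 1.00 without DMSO replicates. A mean of at least 1 FPKM gave 95 loci higher, 2 HERV-H loci higher and a median of 0.29. The median was 1.13 and 0.81 at pseudocounts of 0.1 and 0.5, 0.35 with no filter, 0.53 with at least 10 reads in 3 libraries, 0.43 with quantile and 0.70 with protein-coding scaling, and 1.30 with voom. The share at the loci, erastin minus DMSO, was -0.462 percentage points, and -0.176 without locus 41. The difference in detected loci was 84.0 at 10 reads, 57.0 at 30 reads and 94.0 at 1 FPKM. Head to head loci numbered 52 with protein-coding rows only. Downstream loci numbered 13, 152 and 50 with windows of 1 kb and 10 kb and with protein-coding rows only, and loci far from any row 379 with 1 kb. The nearest row had the same sign for 70.5% of loci, and the nearest protein-coding row for 60%. Apart from windows, filters and left-out libraries, the cause of these shifts was not tested. Same-numbered libraries did not deviate together (correlations -0.380, -0.0135 and -0.311). Deviations from a mean of 3 libraries constrain each other, so these values cannot show whether the numbers pair the libraries. With replicate number as a block, 151 loci rose and 84 fell, and 4683 of all rows rose and 4385 fell. Of 32 called loci named by the rule, 29 kept the call in every setting where they were fitted, all but locus 49, locus 122 and locus 524. Calls were gained for locus 525 and locus 234. Depth limits the precision of low loci: the median locus had 16.8 reads per library.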
